A study of Mus musculus with 550 samples.

Results

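The genes described here are Atf4, Ddit3, Nupr1, Trib3, Chac1, Sesn2, Asns, Psat1, Phgdh and Slc7a11, which belong to the ATF4 response to amino acid shortage. They are 10 of the 55228 gene names in a table of single-cell read counts from mouse embryoid bodies (EBs), the balls of cells that embryonic stem cells form as they differentiate without LIF. The members were picked by name with earlier results of these cells in view, including how their levels differed between genotypes and days. Their differences are therefore given as a description.

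The study asked what the de novo DNA methyltransferases DNMT3A and DNMT3B do during this differentiation. EBs were made from E14 embryonic stem cells (strain 129/Ola) of 3 genotypes, and cells were taken at day 3 and day 9. The wild type is called WT, the Dnmt3a -/- cells 3AKO and the Dnmt3b -/- cells 3BKO. All groups grew in a medium that held nonessential amino acids and glutamine and was replaced every 3 days. Live cells were sorted 1 per well and amplified by a modified Smart-seq2 protocol, which reads whole transcripts and has no molecular identifiers. The labels name no clone or culture, so each of the 6 groups is 1 sample, although the methods speak of independent mutant clones. No test over cells was run. The only repeat measurement is the library batch, which gives 12 libraries. Batch 1 came from plate columns 1 to 8 and batch 2 from columns 9 to 12. At day 9 each genotype had a plate of its own, which held both of its batches. Agreement of the batches there is thus within a plate, and genotype and plate cannot be told apart. The WT cells of day 3 and day 9 were also on different plates.

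ATF4 is a transcription factor whose messenger RNA is translated more efficiently when the initiation factor eIF2α is phosphorylated. The kinase GCN2 does this when amino acids run short, and PERK does it when unfolded proteins load the endoplasmic reticulum (ER). ATF4 binds with C/EBP partners to composite elements and turns on genes that make, import and charge amino acids, together with genes that damp the response or lead to cell death. Because much of this control acts on translation, the Atf4 transcript is not a measure of ATF4 protein.

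The sequences below show where the core of such an element stands in the promoters. The 250 bases before each RefSeq start (GRCm38.p6) were searched on both strands for TGATGNAA, the core of the amino acid response element. It was found in 4 of the 10 members, Asns, Chac1, Nupr1 and Slc7a11, and in 3.91% of the 27025 genes with a promoter window. A second form, TGNTGCAAT, was added after the promoters had been seen. It was found in 3 members, Nupr1, Trib3 and Psat1, and in 0.67% of genes, and in Nupr1 it covers the same bases as the first. The ER stress element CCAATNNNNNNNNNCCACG was in none of the 10 and in 0.13% of genes. Each sequence reads 5′ to 3′ on the strand of the gene, and capitals mark the match.
Asns (chr6:7693215-7693242, minus strand): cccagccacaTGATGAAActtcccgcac
Chac1 (chr2:119351039-119351066, plus strand): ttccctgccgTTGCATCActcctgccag
Nupr1 (chr7:126625563-126625590, minus strand): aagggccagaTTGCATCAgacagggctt
Slc7a11 (chr3:50443662-50443689, minus strand): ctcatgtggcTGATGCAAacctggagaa
Slc7a11, second match (chr3:50443643-50443670, minus strand): cctggagaatTTGCATCAtcatgcagcc
Trib3 (chr2:152344075-152344103, minus strand): gggtcacagaTGGTGCAATcccgggccgc
Psat1 (chr19:15925177-15925205, minus strand): cgcgggtggcTGGTGCAATcccctgctct
The match lies 16 to 23 bases before the start in Asns, 25 to 33 in Trib3, 103 to 110 in Nupr1 and 186 to 193 in Chac1. A match says only that the letters are there. Their absence from the windows of Atf4, Ddit3, Phgdh and Sesn2 says nothing about the factor.

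After removal of cells with fewer than 50000 reads, fewer than 2000 genes or more than 50% mitochondrial reads, 486 of 550 cells were kept. The groups held 67 to 89 kept cells. The 3BKO cells of day 9 lost 26 of 93 to these limits, against 2 of 91 WT and 5 of 93 3AKO cells. Kept cells held 54720 to 1450202 reads, and the batch 2 cells of 3BKO at day 9 were the deepest, with a median of 692320 reads over 21 cells. The share of mitochondrial reads was higher in batch 2, with library medians of 9.09% to 13.5% against 3.58% to 6.31% in batch 1. Within each day and batch, Dnmt3a was lowest in the libraries labelled 3AKO (23.9 to 26.1 CPM) and Dnmt3b in those labelled 3BKO (15.9 and 16.8 CPM at day 9, 167 CPM in day 3 batch 1), except in the mutant libraries of day 3 batch 2. There Dnmt3a stood at 334.5 CPM (counts scaled to a common library total) in the library labelled 3AKO and at 12.8 CPM in the library labelled 3BKO, so these labels are in doubt and those libraries are given apart.

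Levels below are CPM of reads summed over the kept cells. Counting error is small for most of them: Asns in 3BKO at day 9, for example, had an exact Poisson 95% interval of 784 to 805 CPM around 794. The batches differed far more and are given side by side. A fold difference is the log2 ratio of CPM + 1, which understates the change of low genes. The groups are bulk sums, so more RNA per cell and more expressing cells are separated only where single cells are described.

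Atf4 itself (chr15:80255184-80257541, plus strand) had its highest level in 3BKO cells at day 9. Its level was 279 CPM in batch 1 and 140 CPM in batch 2 of these cells, against 142 and 43.7 CPM in WT and 110 and 94.6 CPM in 3AKO. Within each batch 3BKO was above both other genotypes, but 3BKO batch 2 did not exceed WT batch 1. At day 3 the 6 libraries lay between 19.7 and 74.7 CPM.

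Ddit3 (chr10:127290774-127296288, plus strand) encodes CHOP, which ATF4 induces and which can lead a stressed cell towards death. It was low and uneven: at day 9 it stood at 47.3 and 2.93 CPM in the 2 WT batches, 14.4 and 8.48 CPM in 3AKO and 18.9 and 13.3 CPM in 3BKO. The day 3 libraries held 2.01 to 6.93 CPM. One WT cell of batch 1 carried 46.2% of that library's Ddit3 reads. Genotypes thus changed order between batches. Ddit3 also shares 81 exon bases with genes of the opposite strand, Mars among them, and the counting is not stated to use the strand, so its low values are uncertain.

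Nupr1 (chr7:126623249-126630861, minus strand), a small stress-induced nuclear protein, separated the groups most. At day 3 all 6 libraries were between 0.118 and 3.95 CPM. At day 9 it stood at 200 CPM in batch 1 and 30.6 CPM in batch 2 of 3BKO, against 81.8 and 13.8 CPM in WT. In 3AKO it was 34.4 CPM in batch 1 and had no read in batch 2, where 0 of 27 cells allows a share of up to 11.1% (3 cells of 27). The order 3BKO above WT above 3AKO held in both batches, and the 2 batches of 3BKO, and those of WT, were further apart than these genotypes were within a batch.

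Trib3 (chr2:152337422-152344032, minus strand), a pseudokinase that restrains ATF4, and Chac1 (chr2:119351229-119354381, plus strand), which breaks down glutathione, shared the high value in batch 1 of 3BKO. Trib3 was at 88.7 CPM there and at 9.29 CPM in batch 2, against 25.5 and 2.01 CPM in WT and 14.6 and 1.01 CPM in 3AKO. Chac1 was at 284 CPM in batch 1 of 3BKO but at 16.1 CPM in batch 2, beside 35.9 and 15.8 CPM in WT and 64.3 and 6.26 CPM in 3AKO. At day 3 Trib3 lay between 2.16 and 21.7 CPM and Chac1 between 2.84 and 23.7 CPM. For Trib3 the difference between 3BKO and the others was seen in the sums of both batches, but that of batch 2 rested on few cells. There Trib3 had a read in 4 of 21 3BKO cells, 1 of 29 WT cells and 1 of 27 3AKO cells, without thinning. For Chac1 the difference from 3AKO was seen in both batches, and that from WT rested on batch 1.

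Sesn2 (chr4:132492032-132510501, minus strand), a leucine sensor that holds back mTORC1 and is also a p53 target, ran the other way over time. Its 3 libraries of day 3 batch 1 lay between 191 and 204 CPM, and the day 9 libraries between 47.3 and 119 CPM, with 3BKO highest in each batch. In day 3 batch 2 it was at 80.6 to 114 CPM, still above the day 9 value of WT in that batch.

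Asns (chr6:7675169-7693254, minus strand), which makes asparagine, was the most abundant member per length in every group. Per kilobase of exon it ranged from 68.8 CPM in WT at day 3 to 290 CPM in 3BKO at day 9. By library it stood at 1104 and 527 CPM in the 2 batches of 3BKO at day 9, and at 235 to 416 CPM in the 4 other day 9 libraries. Psat1 (chr19:15904678-15947337, minus strand) and Phgdh (chr3:98313170-98339990, minus strand) are enzymes of serine synthesis. Psat1 was at 462 and 280 CPM in 3BKO at day 9, and at 142 to 265 CPM in the other day 9 libraries. How many of all genes separate the libraries in this way was not counted. At day 3 Asns ranged from 160 to 335 CPM, Psat1 from 94.4 to 247 CPM and Phgdh from 48.1 to 164 CPM. At day 9 Phgdh did not follow Psat1. It was at 256 CPM in batch 1 and 42.7 CPM in batch 2 of 3BKO, while 3AKO held 251 and 238 CPM and WT 160 and 88.5 CPM. A pseudogene of Phgdh is annotated, and reads shared with it were left out by the authors' counting.

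Slc7a11 (chr3:49892526-50443614, minus strand), the exchanger that brings in cystine, was the flattest member. Its 12 libraries ranged from 8.55 to 35.6 CPM, and it had the lowest level per length of all members in each group of day 9. The 3BKO libraries of day 9 were at 19.6 and 8.55 CPM, beside 19.7 to 28.1 CPM in WT and 3AKO. The first of them barely differed from the lowest of these.

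**Figure D1:**
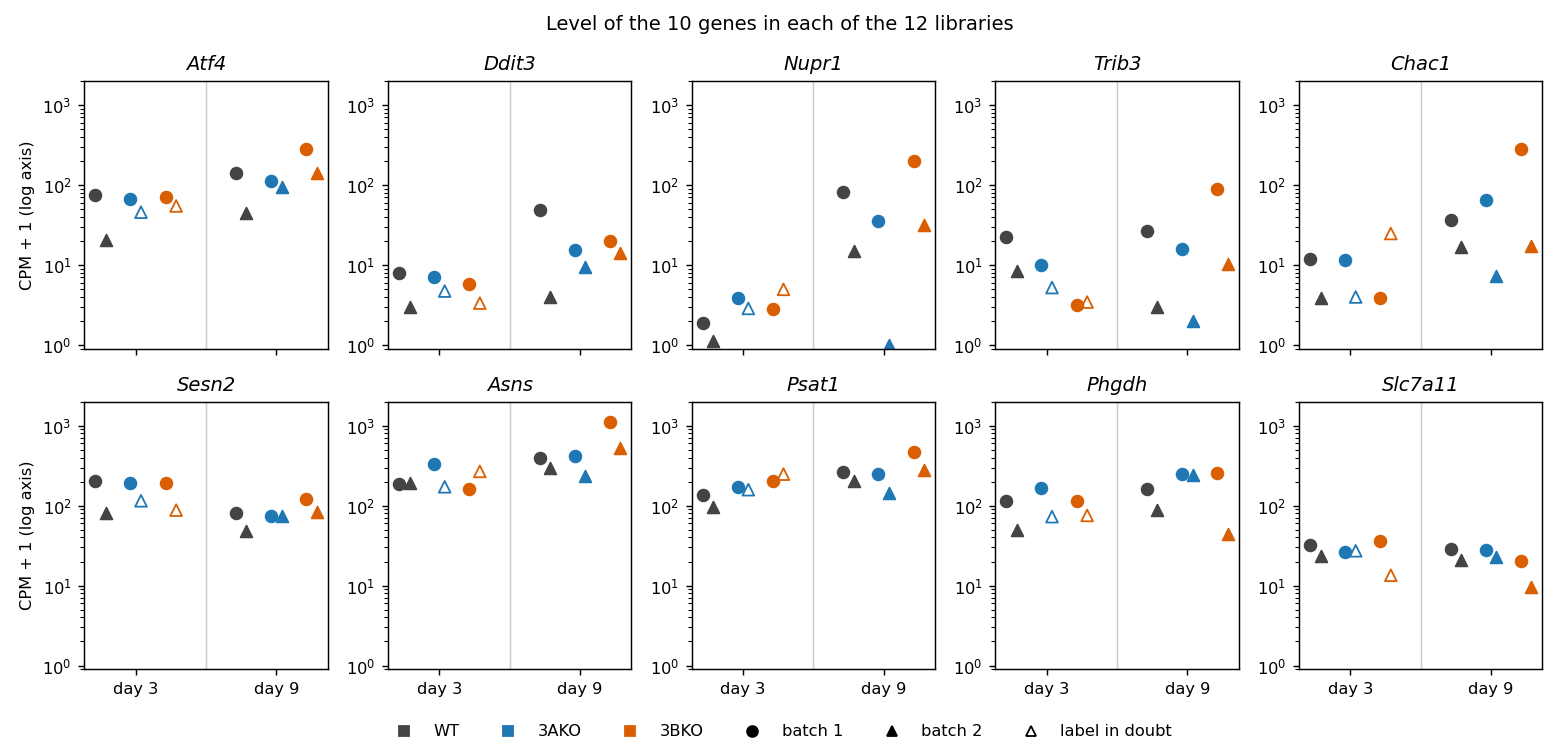
Level of each of the 10 genes (CPM + 1, log axis) in the 12 libraries, by day, with colour for genotype, circles for batch 1, triangles for batch 2 and open triangles for the day 3 libraries whose labels are in doubt. The 3BKO libraries of day 9 sit highest for Asns and Psat1, and among day 9 libraries lowest for Slc7a11, and batch 2 lies below batch 1 for most genes.

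Set against WT at day 9, most members were higher in 3BKO. Summed over both batches, the median log2 ratio over the 10 members was 0.74 (0.89 in batch 1 and 0.81 in batch 2), beside -0.08 over the 9235 genes tested, those with a read, in both batches, in 20% or more of the cells of one or the other genotype. Of the 10 members, 7 were higher in both batches (Nupr1, Chac1, Asns, Atf4, Trib3, Psat1 and Sesn2) and Slc7a11 was lower in both. Of all tested genes, 29.1% were higher in both batches and 37.1% lower in both. Trib3 and Chac1 fell under the detection limit in batch 2, so 8 members were among the genes tested.

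Of the 8 members tested, Nupr1 alone passed a log2 ratio of 1 in the same direction in both batches, a limit passed upwards by 2.86% of tested genes and downwards by 4.98%. Nupr1 met the detection limit only through 3BKO, the group where it was high, so its place among these is description only. It had a read in 55.2% of 3BKO cells and 15.7% of WT cells. Its log2 ratio was 1.28 in batch 1 and 1.10 in batch 2, and 0.89 over both batches. With a pseudocount of 10 CPM no member passed, and Atf4 joined Nupr1 with cell means, thinned cells, TMM or median-ratio factors or without the leading cell, as did Asns with cell means and without the leading cell. The sum lies below either batch because batch 2, where levels were low, gave 16249575 of the 30287278 reads of 3BKO but 11953550 of the 34821361 reads of WT. Asns had log2 ratios of 1.5 and 0.83, and Atf4 of 0.97 and 1.66. Trib3 was at 1.76 and 1.77, past 1 in both, without meeting the detection limit, and Chac1 at 2.95 and 0.02. Psat1 was at 0.80 and 0.48, and Sesn2 at 0.55 and 0.80.

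The remaining members split or went down. Slc7a11 was lower in 3BKO, with -0.50 and -1.12. Phgdh was at 0.67 in batch 1 and -1.03 in batch 2. Ddit3 turned from -1.28 to 1.86, and without the cell with the most Ddit3 reads in each group and batch its summed ratio moved from -0.97 to -0.49.

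The 3AKO cells of day 9 did not share this pattern. Their median log2 ratio to WT was -0.07 over the 10 members, beside -0.10 over 9201 tested genes. Phgdh was the only member higher in both batches (0.65 and 1.42). Nupr1 (-1.23 and -3.89), Trib3 (-0.76 and -0.58) and Psat1 (-0.09 and -0.49) were lower in both. The Trib3 reads of batch 2 came from 1 cell in WT and 1 in 3AKO. Of all tested genes, 23.9% were higher and 32.9% lower in both batches. None of the 6 members that met the detection limit passed a log2 ratio of 1 in both batches, against 1.07% of tested genes upwards and 1.59% downwards. Nupr1 passed it downwards without meeting that limit. In batch 2, with Nupr1 at 0 reads in 3AKO, a floor of 3 counts in that library puts its level in the sampled cells at least 45.6-fold higher in WT. This bound covers the counting of reads only. It does not cover which cells were sampled, and a minority of WT cells carried Nupr1.

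Between the mutants the spread was wider. Against 3AKO, the 3BKO cells had a median log2 ratio of 0.90 over the 10 members, beside -0.00 over 9152 tested genes. Nupr1 (2.5 in batch 1) and Asns (1.41 and 1.16) passed a log2 ratio of 1 in both batches, as 4.56% of tested genes did upwards and 4.91% downwards. Nupr1 again met the detection limit only through its 3BKO cells. In batch 2 the level of Nupr1 in the sampled cells was at least 101-fold higher in 3BKO, against the same floor, which again covers the counting of reads only. Trib3 (2.52 and 2.36) and Chac1 (2.12 and 1.23) passed 1 in both batches as well, below the detection limit. Of the 10 members 8 were higher in both batches and Slc7a11 lower in both, against 32.8% and 33.8% of tested genes. Phgdh was at 0.03 and -2.45. This comparison shares its 3BKO cells with that against WT, so it is no independent support for it.

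**Figure D2:**
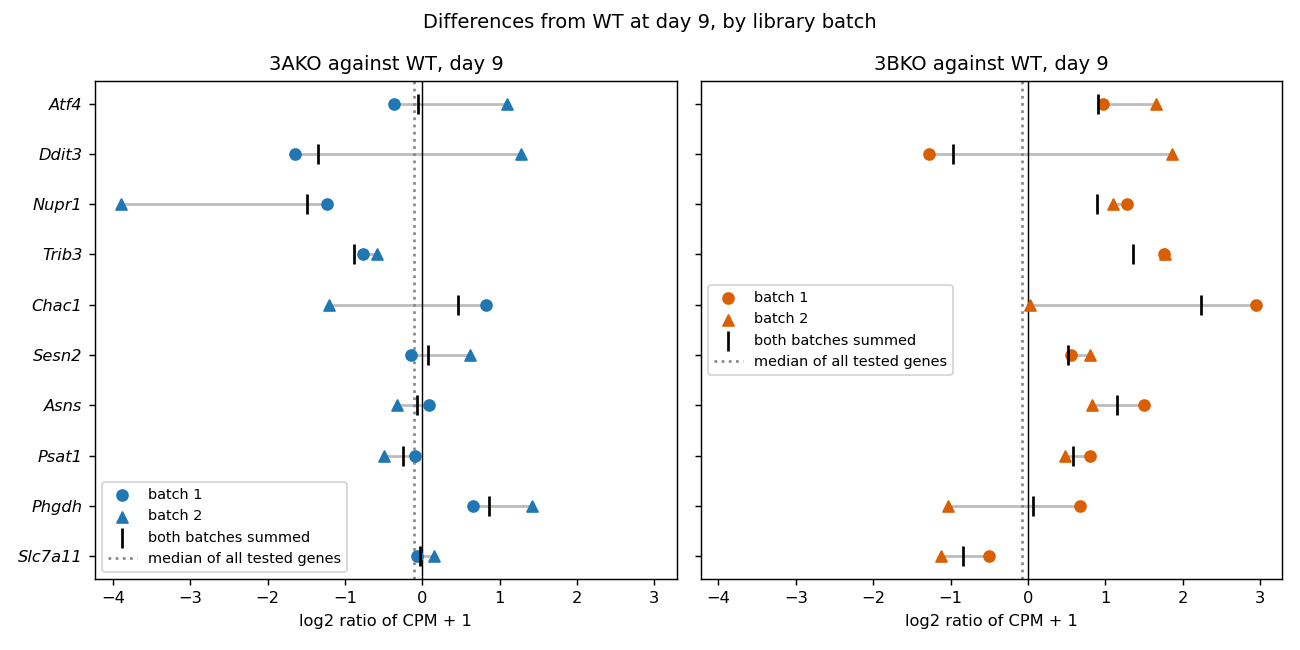
Log2 ratio of CPM + 1 to WT at day 9 for the 10 genes in 3AKO (left) and 3BKO (right), with circles for batch 1, triangles for batch 2, black bars for the sum and a dotted line at the median of all tested genes. In 3BKO 7 genes lie to the right of 0 in both batches, in 3AKO only Phgdh does.

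Single cells showed where the high sums came from. To set depths equal, each cell was thinned to 50000 reads before cells with a read were counted, and intervals are exact binomial 95% intervals that cover counting error only. Nupr1 had a read in 31 of 67 cells of 3BKO at day 9 (46.3%, interval 34 to 58.9), against 14.6% (8.01 to 23.7) in WT and 7.95% (3.26 to 15.7) in 3AKO. Without thinning, the share in 3BKO was 55.2%. At day 3 it was 1.27% to 6.02% in the 3 groups.

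The sparse members were carried by few cells. Trib3 had a read in 32.8% (21.8 to 45.4) of 3BKO cells, 12.4% (6.33 to 21.04) of WT and 6.82% (2.54 to 14.3) of 3AKO cells at day 9. In the same order, it had a read in 43.5%, 16.7% and 8.2% in batch 1. For batch 2 Trib3 had a read in 9.52%, 3.45% and 3.7%. Chac1 had one in 23.9% (14.3 to 35.9), 8.99% (3.96 to 16.9) and 9.09% (4.01 to 17.1). By batch, the Chac1 share was 30.4% in 3BKO, 8.33% in WT and 9.84% in 3AKO in batch 1. In batch 2 Chac1 had a read in 9.52%, 10.3% and 7.41%, so its higher share in 3BKO rested on batch 1. Its median cell was therefore at 0 in every group, and its highest cells were at 5400 CPM in 3BKO, 3599 CPM in 3AKO and 868 CPM in WT. The single 3AKO cell with the most Chac1 reads held 76.96% of them.

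Asns, in contrast, was higher across the 3BKO population. The median cell was at 548 CPM in 3BKO, 218 CPM in 3AKO and 124 CPM in WT, and the highest at 5813, 2393 and 2664 CPM. Of 67 3BKO cells, 62 (92.5%, interval 83.4 to 97.5) lay above the WT median of the same batch, as did 70.5% of 3AKO cells. For Atf4 the median cell was at 140 CPM in 3BKO, 48.97 CPM in 3AKO and 40 CPM in WT. For Slc7a11 only 11 of 67 3BKO cells (16.4%, interval 8.49 to 27.5) lay above the WT median of the same batch, against 40.9% of 3AKO cells.

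Cells with several members at once were more frequent in 3BKO at day 9 in batch 1, and not in batch 2. At least 7 of the 10 members had a read in 22 of 67 thinned 3BKO cells (32.8%), in 11 of 89 WT cells and in 12 of 88 3AKO cells. In batch 1 these were 43.5% of 3BKO cells, 13.3% of WT and 14.8% of 3AKO cells. In batch 2 they were 2 of 21 3BKO cells (9.52%), 3 of 29 WT (10.3%) and 3 of 27 3AKO cells (11.1%), so that 3BKO had the lowest share there. Nupr1, Chac1 and Trib3, a trio taken after their values were seen, were counted without thinning, so at unequal depth. All 3 were read in 12 of the 3BKO cells, 11 of them in batch 1, in 5 WT cells and in 2 3AKO cells. None of the 3 had a read in 24 of 67 3BKO, 68 of 89 WT and 71 of 88 3AKO cells, again without thinning. Cells with all 3 were thus found in WT too, and many 3BKO cells had none.

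**Figure D3:**
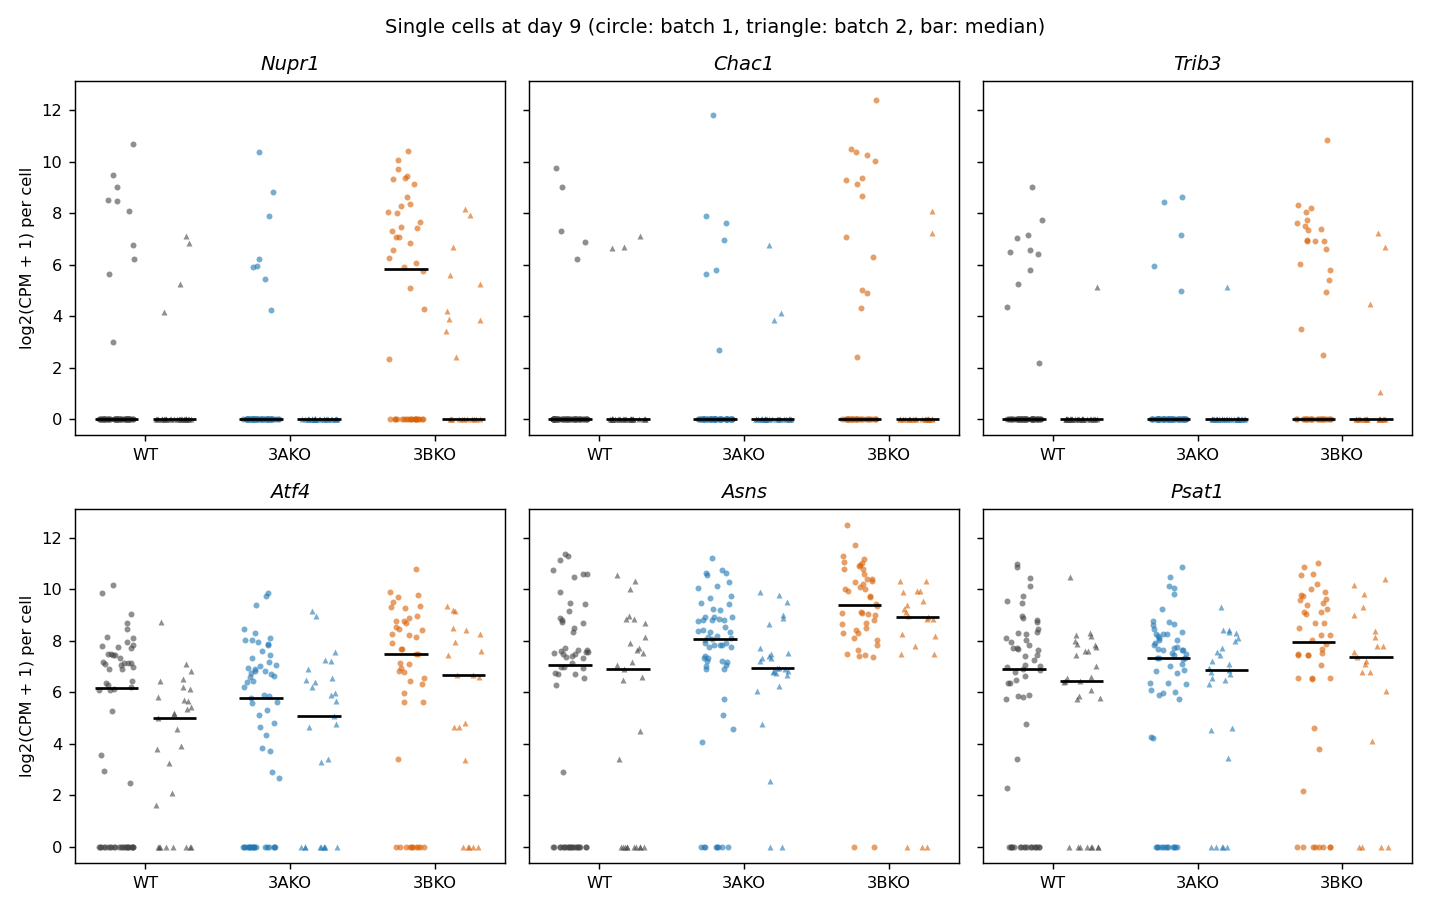
Single cells of day 9, log2(CPM + 1) of 6 of the genes by genotype, with circles for batch 1, triangles for batch 2 and a bar at the median of each batch. Nupr1, Chac1 and Trib3 are at 0 in most WT and 3AKO cells. In 3BKO Nupr1 spreads upwards in both batches, and Chac1 and Trib3, still at 0 in most cells, mainly in batch 1. Asns moves as a whole.

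From day 3 to day 9 most members were higher in WT as well. Their median log2 ratio was 0.98 (0.94 in batch 1, 0.74 in batch 2), beside 0.19 over 10162 tested genes. Of the 10 members, 7 were higher at day 9 in both batches and 2, Sesn2 and Slc7a11, lower in both, against 44.4% and 24% of tested genes. None of the 8 tested members passed a log2 ratio of 1 in both batches, and Nupr1 and Chac1 (1.62 and 2.13) did so under the detection limit, while 5.25% of tested genes did upwards and 2.19% downwards. Here the scaling matters, since 70.5% of those genes were higher at day 9 with library totals, 54.8% without mitochondrial reads and Gm42418, 44.3% with TMM factors and 47.7% with median-ratio factors. Relative to the median of all tested genes, the members stood 0.80 higher with library totals and 0.78 higher with either kind of factor.

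The largest ratio in time was that of Nupr1, from 0.889 to 81.8 CPM in batch 1 and from 0.118 to 13.8 CPM in batch 2 of WT. Atf4 had log2 ratios of 0.92 and 1.11, Psat1 of 0.97 and 1.08, and Asns of 1.07 and 0.61. Sesn2 was at -1.32 and -0.76. Trib3 changed sign between batches (0.22 and -1.49). Ddit3 was at 2.61 in batch 1 and 0.38 in batch 2, and the cell named above raised the batch 1 value.

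At day 3 the batches gave different pictures. In batch 1, where the labels matched Dnmt3a and Dnmt3b, the median log2 ratio to WT over the 10 members was -0.08 for either mutant, beside 0.01 over all tested genes. In each, 4 of the 10 members were higher and 6 lower than in WT, against 50.5% and 49.5% of tested genes for 3AKO and 50.9% and 49.1% for 3BKO. Of the members detected in 20% of cells, Trib3 alone passed a log2 ratio of 1, downwards in both mutants, from 21.7 CPM in WT to 9.04 CPM in 3AKO and 2.16 CPM in 3BKO. Downward ratios of that size were found in 3.43% of 10858 tested genes for 3AKO and 2.6% of 10641 for 3BKO, and upward ones in 5.1% and 3.44%. Under the detection limit, Nupr1 in 3AKO (1.04) and Chac1 in 3BKO (-1.62) passed it too. One WT cell held 34.4% of the Trib3 reads of its library. Without the leading cell of each group, Trib3 in 3AKO stood at -0.83 and no longer passed, and Chac1 and Asns passed 1 upwards. It also fell short with cell means, thinned cells or a pseudocount of 10, and was not tested at 40% detection. Asns was 0.85 higher in 3AKO and 0.21 lower in 3BKO on the log2 scale.

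The doubtful mutant libraries of day 3 batch 2 are given as single libraries, and both had members above WT of the same batch, whichever way the labels run. The median log2 ratio over the 10 was 0.53 in the library labelled 3AKO and 0.55 in that labelled 3BKO, beside 0.11 and -0.03 over all tested genes. In each library 8 of the 10 were higher than in WT and 2 lower, where 56.6% and 43.4% of tested genes were in the first and 48.4% and 51.6% in the second. The detection limit was met by 8 of the 10 members in each. Atf4 stood at 44.7 CPM in the library labelled 3AKO and 53.7 CPM in the library labelled 3BKO, against 19.7 CPM in WT of the same batch, past a log2 ratio of 1 in both. In the library labelled 3BKO, Psat1 (1.38) passed 1 upwards and Trib3 (-1.30) downwards. Ratios of that size upwards were found in 11.9% of tested genes in the library labelled 3AKO and 10.2% in that labelled 3BKO, and downwards in 7.77% and 8.52%. Chac1 was at 23.7 CPM in the library labelled 3BKO, where 1 cell held 97.9% of its reads, and at 2.97 and 2.84 CPM in the other two.

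Members were also compared across cells, within each library, by Spearman's rho of log2(CPM + 1), averaged over both libraries of a group. Cells of a library share its preparation and depth, so these values describe the data and carry no p. Over the pairs of members detected in at least 20% of cells in both libraries, the median rho was 0.24 in 3BKO at day 9 (0.30 in batch 1 and 0.23 in batch 2). With no cell left out it was 0.42 there, in the group that lost 26 of 93 cells to the limits. It was 0.13 in WT and 0.09 in 3AKO at day 9, and 0.01 in WT at day 3. Over all pairs of detected genes in the same cells it lay between 0.01 and 0.03 in the 6 groups.

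Since different members were detected in different groups, the 6 detected in every group (Asns, Atf4, Psat1, Phgdh, Sesn2 and Slc7a11) were compared alone. Their 15 pairs had a median rho of 0.28 in 3BKO at day 9, 0.13 in WT and 0.09 in 3AKO. At day 3 it was 0.05 in WT, 0.10 in the cells labelled 3AKO and 0.02 in those labelled 3BKO, or 0.09 and 0.02 in batch 1 alone. The difference between genotypes was not tested.

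In 3BKO at day 9 the highest rho among pairs that met the detection limit joined Psat1, Phgdh, Nupr1 and Asns. Psat1 and Phgdh, adjacent steps of serine synthesis, had a rho of 0.60 in batch 1 and 0.67 in batch 2. Nupr1 and Psat1 had 0.55 and 0.71, and Asns and Phgdh 0.62 and 0.51. Of its 28 pairs 25 were above 0 and 14 above 0.245, the 95th percentile of all gene pairs in these cells. Among the pairs that met the detection limit, Psat1 and Phgdh were also the closest in WT at day 9, with 0.39 and 0.38. Nupr1 met this limit in 3BKO at day 9 only. Below the limit, Nupr1 and Asns had 0.49 and 0.41 in WT at day 9, and Nupr1 and Psat1 0.51 and 0.09. The link of Nupr1 and Asns was thus not particular to 3BKO. Asns and Slc7a11, on the other hand, ran in opposite directions in WT at day 9, with -0.40 and -0.23.

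**Figure D4:**
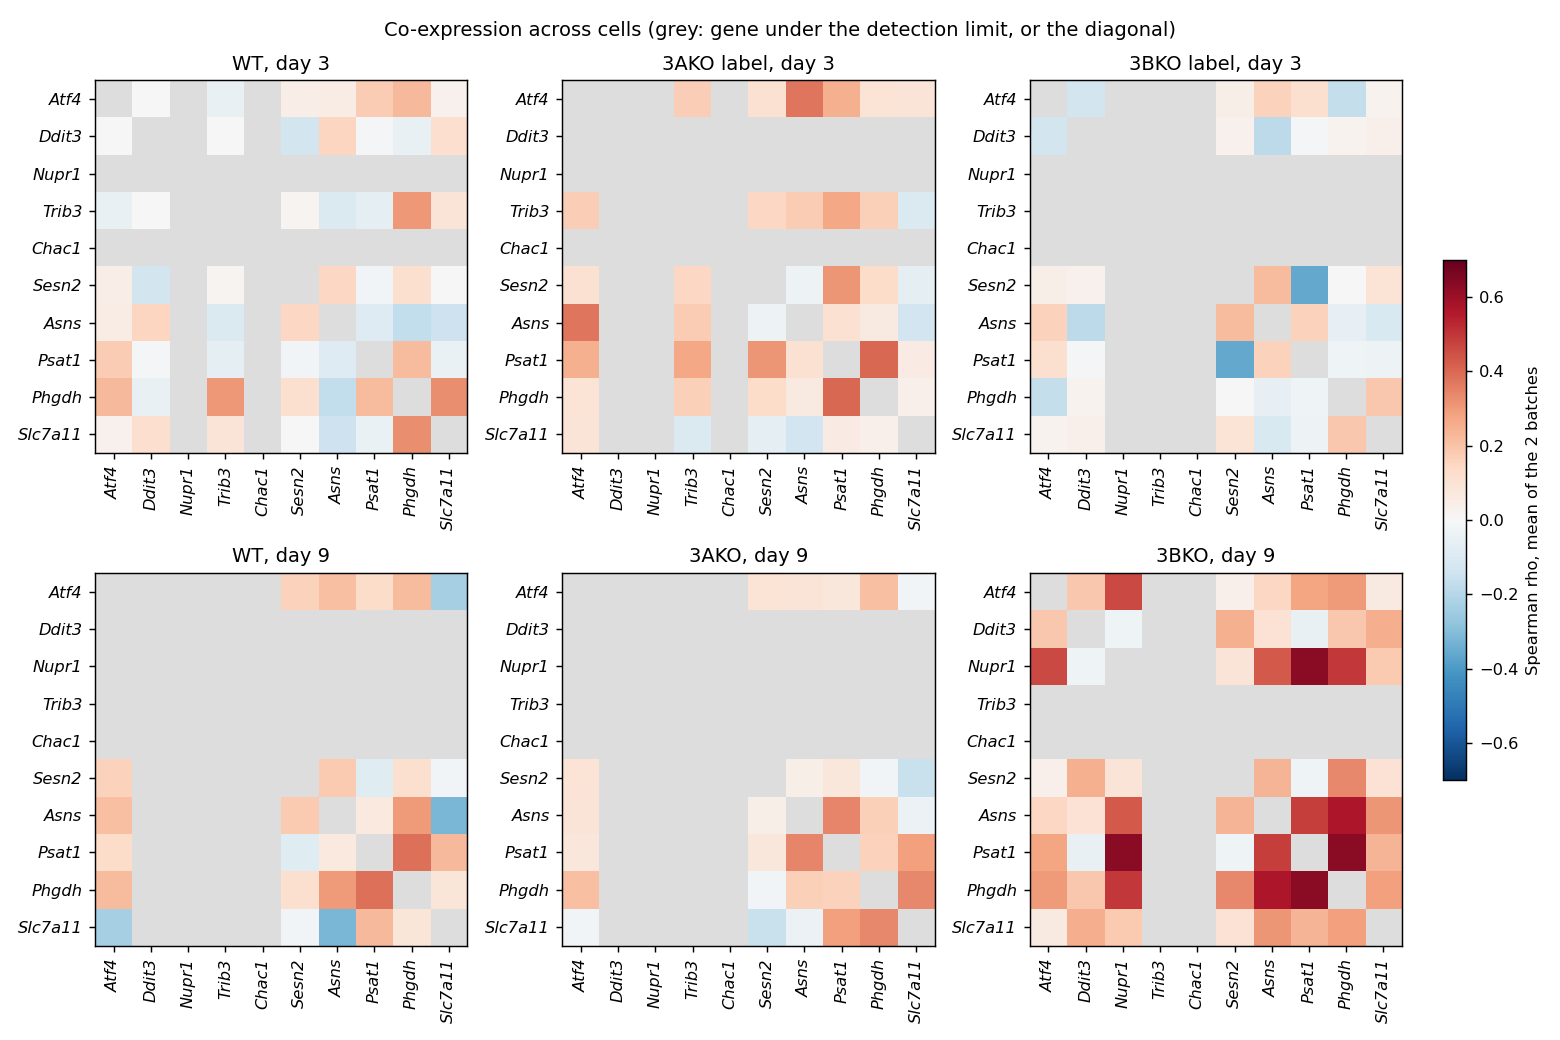
Spearman's rho across cells for pairs of the 10 genes in the 6 groups, averaged over both batches, with red for positive and blue for negative values and grey for genes under the detection limit. In 3BKO at day 9 the highest values, up to 0.63, lie among Nupr1, Asns, Psat1 and Phgdh. Nupr1 and Atf4 (0.46), however, exceed Nupr1 and Asns (0.43).

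Over all 486 cells, ranked within each of the 12 libraries, each member was set against the mean log2(CPM + 1) of the other 9. Phgdh (rho 0.37) and Nupr1 (0.36) followed the rest most closely, then Trib3, Psat1, Chac1, Atf4 and Asns between 0.24 and 0.29. Slc7a11 (0.11), Sesn2 (0.09) and Ddit3 (0.07) followed it little.

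The genes outside the list that most resembled the mean of all 10 members were then ranked, among 8808 named genes. They were Gars (rho 0.34), Pck2 (0.33), Mthfd2 (0.33), Mars (0.32), Tars (0.32), Nars (0.31), Yars (0.30), Cars (0.30), Aldh18a1 (0.29) and Cryzl1 (0.29). Gars, Mars, Tars, Nars, Yars and Cars are aminoacyl-tRNA synthetases, which load amino acids onto tRNA. Pck2 makes phosphoenolpyruvate in mitochondria, Mthfd2 works in mitochondrial one-carbon metabolism and Aldh18a1 starts proline synthesis. Over all 9726 genes the median rho was 0.04 and the 99th percentile 0.18.

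Gars, Mthfd2, Mars, Yars and Aldh18a1 had a rho above 0 in all 12 libraries. The mean of the members also followed the number of detected genes in a cell (rho 0.32), the number of reads (0.09) and the mitochondrial share (-0.12). With ranks adjusted for these 3 properties, 7 of the 10 genes were still among the first 10, and with thinned cells 8. Without the 3BKO cells of day 9, 6 were, Gars and Pck2 still first. These alternatives were added after the ranking had been seen.

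**Figure D5:**
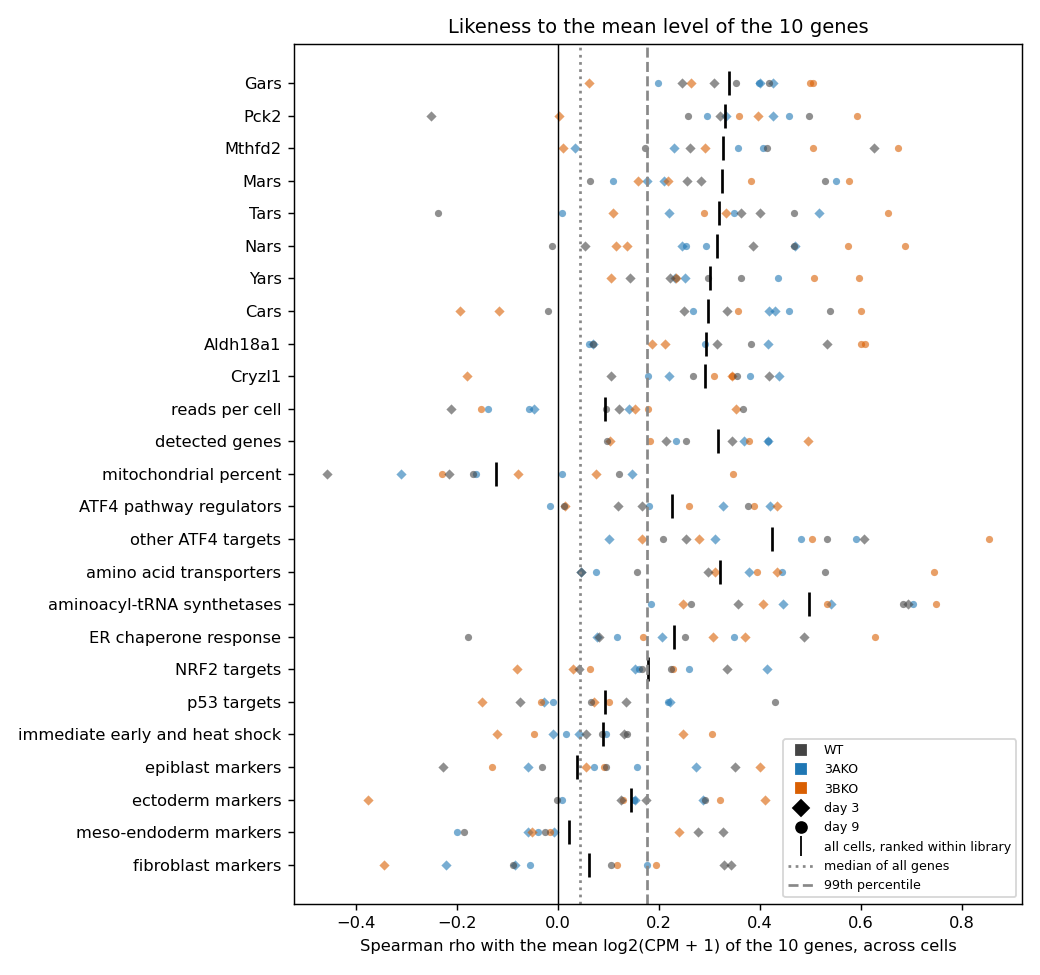
Spearman's rho with the mean log2(CPM + 1) of the 10 genes, across cells, for the 10 most alike genes, 3 cell properties and the scores of the other gene lists, with a point for each of the 12 libraries (colour for genotype, diamonds for day 3, circles for day 9) and black bars for all cells ranked within library. The dotted and dashed lines mark the median and the 99th percentile of all genes. The synthetase list has the highest bar (0.50), and the p53 and cell type lists lie at or below 0.14.

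Other genes of the pathway were taken from lists fixed by name. For scale, 29.1% of all tested genes were higher in 3BKO than in WT at day 9 in both batches and 37.1% lower in both. A log2 ratio of 1 in both batches was passed upwards by 2.86% of them. Among 17 other ATF4 targets, 12 were higher in 3BKO than in WT at day 9 in both batches, 1 was lower in both, and the median log2 ratio was 0.56. Of the 17, 13 met the detection limit, which all genes behind the shares met. Past a log2 ratio of 1 in both batches were Ddit4, an mTORC1 inhibitor (15.7 against 1.21 CPM), and Cth, which makes cysteine (161 against 58.6 CPM). Ddit4 was also higher in 3AKO, at 27.1 CPM, so it was not particular to 3BKO. Of 12 synthetases 8 were higher in both batches and 2, Eprs and Wars, lower in both, with a median of 0.44. Cars, Gars and Yars had log2 ratios of 0.62, 0.60 and 0.60. None of the 12 passed 1 in both batches.

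Amino acid transporters were closer to WT, with 4 of 8 higher in both batches, 1 lower and a median of 0.38, beside 29.1% and 37.1% of all tested genes. Among 12 regulators of the pathway 6 were higher in both batches and none lower in both, with a median of 0.30. Of these lists, 6 transporters and 8 regulators met the detection limit. In 3AKO the same 4 lists had medians between -0.21 and -0.09. Eif2ak4, which encodes GCN2, was higher there (14.6 against 5.00 CPM), and Cebpg, a partner of ATF4, lower (4.99 against 11.55 CPM), each past a log2 ratio of 1 in both batches. In 3AKO 1.07% of tested genes passed that limit upwards and 1.59% downwards. Between the mutants, 4 other genes of these lists passed it, all higher in 3BKO: Mthfd2 (190 against 49.8 CPM), the autophagy receptor Sqstm1 (1337 against 481 CPM), the arginine and lysine carrier Slc7a1 (21.7 against 5.91 CPM) and the alanyl-tRNA synthetase Aars (244 against 86.6 CPM). Of all genes tested between the mutants, 4.56% passed it upwards and 4.91% downwards.

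Cell type markers moved with genotype too. In 3BKO at day 9 the 7 meso-endoderm markers summed to 1.29 CPM (0 to 2.78 CPM by batch) (4 of 7 with a read, T, Mixl1 and Foxa2 at 0), against 41.7 CPM in WT (40.9 to 42.2) and 66.6 CPM in 3AKO (38.6 to 106). The 6 fibroblast markers summed to 1.16 CPM (1.07 to 1.23) in 3BKO with Col3a1, Lum and Dcn at 0, to 14.4 CPM (10.8 to 21.4) in WT and to 42.2 CPM (4.85 to 68.7) in 3AKO. Of 6 ectoderm markers 3 had a read in 3BKO, with Sox1, Nes and Fabp7 at 0, and they summed to 168 CPM (104 to 242), against 180 CPM (118 to 213) in WT and 163 CPM (131 to 186) in 3AKO. Gene by gene, 1 of the 6 was higher than in WT in both batches and 4 lower, with a median log2 ratio of -2.25. Among all tested genes the shares were 29.1% and 37.1%, and only 1 of the 6 met the detection limit. The 6 epiblast markers were read in all 3 groups, at 2147 to 2967 CPM by batch in 3BKO, 1607 to 2166 CPM in WT and 1975 to 2368 CPM in 3AKO. The part of this cell makeup in the member levels was not tested. With no cell left out, the median log2 ratio of the members in 3BKO against WT at day 9 was 0.73, and Nupr1 was again the member past 1 in both batches.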

How the data were processed

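The authors deposited 1 table of raw read counts per gene name and cell. Per the labels and the study's methods, single-end reads were checked with FastQC 0.11.2, trimmed with Trim Galore 0.5.0, aligned to mm10/GRCm38 with STAR 2.7.1a and counted over exons with featureCounts 1.6.1 on GENCODE M23, leaving out multi-mapped reads. The strand setting is not given in the sources used here. Of the columns, 26 carry no sample (8 marked empty, 18 mini-bulk) and were not used.

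Groups came from the labels. The members and the gene lists were chosen with earlier results of these data known. Genes were named if they were members, passed a log2 ratio of 1 in both batches within a list, or were among the 10 most like the member mean. Cells were filtered as in the study, counts summed and scaled to CPM, and ratios taken with a pseudocount of 1 CPM. A gene was tested where detected in 20% of cells, and called past a log2 ratio of 1 in each batch used. No doublet caller was run, since cells were sorted singly. No 2 cells held identical counts. Positions are from GENCODE vM21 (97% of names found). The scripts ran in Python 3.11.15 with numpy 2.4.6 and in R 4.3.3 with edgeR 4.0.16 (TMM factors) and DESeq2 1.42.0 (median-ratio factors), no count model being fitted, and were tested on simulated data. Alternatives were other cell filters, single batches, cell means, thinning, leaving out the leading cell, scaling, pseudocounts and detection limits.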

Additional observations from a re-analysis of the deposited data

Results flagged for a closer look

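For 3 members the ratio to WT at day 9 pointed in opposite directions in the mutants, in both batches. Nupr1 was lower than WT in 3AKO and higher in 3BKO, and the mutants differed by 2.38 on the log2 scale. Trib3 did the same, with a difference of 2.24, below the detection limit in batch 2 in all 3 genotypes. Its reads of batch 2 came from 1 cell in WT, 1 in 3AKO and 4 in 3BKO. Psat1 differed by 0.83, with the smallest ratios in 3AKO (-0.09 and -0.49). None of these differences was tested, because each genotype is 1 sample, and both ratios share the WT cells.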

How the results depend on the processing

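No paired analysis was possible because the labels give no replicate numbers and the batches lie within plates. No member past the limit at first changed sign under an alternative, but Ddit3, not past it at first, was called lower in 3BKO against WT at day 9 in batch 1 alone (-1.28) and higher in batch 2 alone (1.86). For 3BKO against WT at day 9 the median of the members stayed between 0.68 and 1.13: 1.09 with cell means, 1.13 with thinned cells, 0.89 without the leading cell, 0.80 with TMM and 0.85 with median-ratio factors, 0.68 with a pseudocount of 10, 0.89 in batch 1 and 0.81 in batch 2. Members called there, 1 at first, became 2 with the stricter cell filter, thinning, either factor or 10% detection, 3 with cell means or without the leading cell, 5 in each batch alone and 0 with a pseudocount of 10. In a batch alone only that batch has to pass the limit, so any gene passes it more easily. The share of all tested genes is not given for these alternatives, so a larger count, here or below, is not read as a stronger result. For 3AKO against WT the median, near 0, became -0.23 with the stricter filter, 0.0024 with cell means, -0.013 with thinning, -0.10 without the leading cell, -0.043 without mitochondrial genes and Gm42418, 0.019 with TMM and 0.015 with median-ratio factors, and -0.12 and -0.089 in single batches. Its calls went from 0 to 1 at 10% detection and in batch 1, and to 2 in batch 2. Between the mutants calls went from 2 to 4 at 10% detection and in batch 2 and to 5 in batch 1. For WT, day 9 against day 3, the median of 0.98 became 0.73 with cell means, 0.70 with thinning, 0.82 and 0.78 with the factors and 0.74 in batch 2, and calls went from 0 to 1 without the leading cell, with either factor and at 10% detection, and to 3 in each batch. At day 3 in batch 1 the 1 call for 3AKO became 0 with cell means, thinning, a pseudocount of 10 or 40% detection and 2 at 10% detection (Trib3 with Nupr1) or without the leading cell (Chac1 and Asns, Trib3 being lost), and its median 0.26 without the leading cell. The 1 call for 3BKO became 0 at 40% detection. The median rho of the members became 0.42 without a cell filter and 0.30 in batch 1 for 3BKO at day 9, and 0.086 in batch 1 for WT at day 9. At day 3 it became 0.10 without a filter, 0.10 with thinning and 0.091 in batch 1 for WT, and 0.19 without a filter and 0.065 with thinning for 3AKO. For 3BKO at day 3 it became 0.12 without a filter, 0.00603 with the stricter one, 0.057 as Pearson's r, 0.0399 as a partial correlation and -0.0015 in batch 1. The cause of these changes was not tested. Of the shares of cells with a read, recomputed without thinning and with at least 5 reads, 109 stayed within their counting interval and 11 did not. Intervals cover counting error only, and 21 to 61 cells a library, unknown clones and 1 sample a group limit what can be said.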

Other observations

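Lists outside the ATF4 response differed as well between 3BKO and WT at day 9. For scale, 29.1% of all tested genes were higher in 3BKO in both batches and 37.1% lower in both. A log2 ratio of 1 in both was passed upwards by 2.86% of them and downwards by 4.98%. All 10 p53 targets were higher in 3BKO in both batches, with a median log2 ratio of 0.93, and Phlda3 (158 against 66.7 CPM) and Eda2r (90.5 against 24.2 CPM) passed 1 in both. Across cells of 3BKO the p53 list had a rho of only -0.03 in batch 1 and 0.10 in batch 2 with the mean of the 10 members. Of 9 NRF2 targets, 7 of which met the detection limit, 5 were higher in both batches, and Hmox1, which breaks down heme, was at 305 against 104 CPM. The 14 ER chaperone genes were divided, with 6 higher in both batches, 3 lower and a median of 0.16. Of 9 immediate early and heat shock genes, 6 of which met the detection limit, 3 were higher in both batches and 3 lower, with a median of -0.28. Fgf5, a marker of the primed epiblast, was at 2.11 against 61.1 CPM, past a log2 ratio of -1 in both batches.

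In 3AKO at day 9 the immediate early gene Fos was at 323 against 61.03 CPM in WT, past a log2 ratio of 1 in both batches, as were 1.07% of tested genes. Between the mutants Fos and Egr1 were lower in 3BKO past that size in both batches. The p53 targets Cdkn1a, Sesn1, Zmat3 and Eda2r, with Xbp1, Nqo1 and Nanog, were higher in 3BKO past it. Of all genes tested between the mutants, 4.56% were past it upwards and 4.91% downwards.

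In WT, Gdf15 (26.1 against 6.04 CPM), Herpud1 (114 against 25.9 CPM), Fos, Egr1 and Nanog were higher at day 9 than at day 3 past a log2 ratio of 1 in both batches. Of 9 NRF2 targets, 8 of which met the detection limit, 7 were lower at day 9 in both batches. Txnrd1 (122 against 263 CPM) was past 1 in size, as was Eif2ak4 (5.00 against 11.3 CPM). Of all tested genes, 5.25% passed that size upwards and 2.19% downwards, and 24% were lower in both batches.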
